A study of Saccharomyces cerevisiae BY4741 with 2 samples.

Results

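Nuclear RNA termination and surveillance in the budding yeast Saccharomyces cerevisiae was described through 6 genes, NRD1, NAB3, MTR4, TRF5, AIR1 and RRP4. They were taken by name from the deposited tables, where each of the 6 stood on 1 row, out of 2809 distinct names on 3146 rows. The tables gave 1 value per row for a wild-type reference strain and 1 for a dbp2Δ strain, which lacks the DEAD-box RNA helicase Dbp2. Both strains were MATa and carried ura3Δ0 and leu2Δ0. The reference strain also carried his3Δ1 and met15Δ0, while the deletion strain carried dbp2::KanMx, his3Δ0, TRP1, a methionine requirement given as met- and a lysine deletion given as lysΔ. The strains therefore differed at more loci than DBP2, and the effect of those loci cannot be told apart from that of the deletion. RNA came from cultures in rich medium with glucose at mid-log phase, was depleted of ribosomal RNA and was sequenced with a strand-specific SOLiD kit. Although the labels mention 2 replicates of each strain, the tables give a single value for each, so differences below lack a replicate check and no p-value was computed.

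Nrd1 and Nab3 are RNA-binding proteins that recognise short motifs in nascent RNA and, with the helicase Sen1, end RNA polymerase II transcription of small nucleolar RNAs and cryptic unstable transcripts. The TRAMP complexes join a non-canonical poly(A) polymerase (Trf4, encoded by PAP2, or Trf5), a zinc-knuckle RNA-binding protein (Air1 or Air2) and the helicase Mtr4, and add short A tails that mark nuclear RNA for processing or decay. The nuclear exosome, a ring of inactive subunits capped by S1/KH proteins such as Rrp4 and joined to the nucleases Dis3 and Rrp6, then trims or degrades the RNA.

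Values were taken as FPKM (fragments counted per kilobase and relative to library size), so levels of different genes are per length. The read depth behind them is unknown, because the tables hold no counts and whole reads could not be recovered from the low values. The highest of the 3 DBP2 rows was 1539.7 FPKM in wild type against 2.52 FPKM in dbp2Δ cells. The a-cell receptor gene STE2 was 433 FPKM in each strain, and the alpha-cell genes STE3 and MATALPHA1 did not exceed 4.10 FPKM. The comparison covered 2211 genes that stood on 1 row, were above 0 in both strains and had a mean of at least 1 FPKM. Ratios are log2 of the deletion value over the wild-type value after adding 1 to each, which understates the change of low genes, and folds are plain ratios of the deposited values. A size limit of 2-fold on this log2 scale was used in place of a test. The median log2 ratio over all genes compared was -0.08. Giving protein-coding genes an equal sum in each strain raised that median by 0.46. Directions are therefore given both as deposited, with no rescaling, and under this scaling where they differ. A sum gives most weight to the genes with the highest values. Equal medians over the genes compared took a factor of 0.995 on the deletion strain, nearly no rescaling, against 1.38 for equal protein-coding sums. In RNA from whole cultures, fewer cells with an RNA and less of it per cell cannot be told apart.

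The RNAs of the termination pair were higher in the deletion strain. NAB3 (YPL190C, chromosome XVI, 185317 to 187725, minus strand) was at 45.5 FPKM in wild type against 110.2 FPKM in dbp2Δ cells. That is a 2.42-fold higher value and a log2 ratio of 1.26. NRD1 (YNL251C, chromosome XIV, 172588 to 174315, minus strand) was at 30.3 FPKM in wild type against 48.4 FPKM in dbp2Δ cells, 1.60-fold higher, with a log2 ratio of 0.66. Both differences kept their direction with equal protein-coding sums, where the ratios were 3.35-fold for NAB3 and 2.21-fold for NRD1. NAB3 alone of the 6 genes passed the 2-fold limit as deposited, 1 of 6 higher and 0 of 6 lower. Over all genes compared 8.86% passed the limit upwards and 10.9% downwards, so 1 of 6 is close to what the whole table gives. With equal protein-coding sums NRD1 joined NAB3, making 2 of 6 higher against 19.9% of all genes, and 0 of 6 lower against 4.57%.

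The RNAs of the 3 TRAMP genes were lower in the deletion strain as deposited. MTR4 (YJL050W, chromosome X, 342522 to 345743, plus strand), the helicase that TRAMP shares with other nuclear exosome adaptors, was at 500.2 FPKM in wild type against 295 FPKM in dbp2Δ cells. Its value was lower by 1.70-fold and its log2 ratio was -0.76, the lowest of the 6 genes. TRF5 (YNL299W, chromosome XIV, 66517 to 68445, plus strand), the poly(A) polymerase, was at 123 FPKM in wild type against 85.9 FPKM in dbp2Δ cells, lower by 1.43-fold. AIR1 (YIL079C, chromosome IX, 210923 to 212005, minus strand), the zinc-knuckle protein, was at 209 FPKM in wild type against 146.9 FPKM in dbp2Δ cells, lower by 1.42-fold. The log2 ratios of TRF5 and AIR1 were close to each other, at -0.51 and -0.50, and none of the 3 genes reached 2-fold. These differences were sensitive to scaling: with equal protein-coding sums the log2 ratios were -0.29 for MTR4, -0.05 for TRF5 and -0.04 for AIR1.

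RRP4 (YHR069C, chromosome VIII, 233579 to 234658, minus strand), which encodes a cap subunit of the exosome ring, had nearly the same value in each strain. It was at 349 FPKM in wild type against 356 FPKM in dbp2Δ cells, with a log2 ratio of 0.03 that became 0.50 with equal protein-coding sums. Each of the 6 genes has a single coding segment in the annotation, with open reading frames from 1080 bp (RRP4) to 3222 bp (MTR4).

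**Figure D1:**
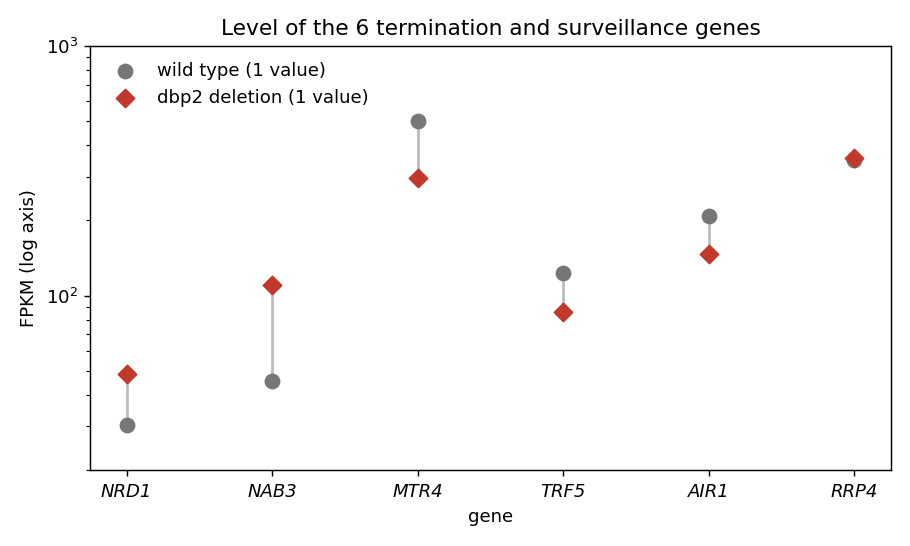
Level of each gene in FPKM on a log axis, with grey circles for wild type and red diamonds for the dbp2 deletion strain, 1 value per strain and therefore no error bars. NRD1 and NAB3 are higher in the deletion strain, MTR4, TRF5 and AIR1 are lower, and the RRP4 points lie almost on each other, at 349 and 356 FPKM.

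The termination genes were the lowest of the 6 in wild type, and the spread between the 6 genes was narrower in the deletion strain. In wild type the order from high to low was MTR4, RRP4, AIR1, TRF5, NAB3 and NRD1, and the highest level was 16.5 times the lowest. In the deletion strain the order was RRP4, MTR4, AIR1, NAB3, TRF5 and NRD1, and the highest level was 7.36 times the lowest. RRP4 and MTR4 thus exchanged places, as did NAB3 and TRF5, and with no replicates it is unknown whether neighbours in either order differ beyond their spread. Ratios between genes within a strain are free of any factor applied to a whole strain. MTR4 RNA was 11.0 times the level of NAB3 RNA in wild type and 2.68 times in the deletion strain. That is a 4.11-fold shift between the helicase and the termination factor, the largest among the 15 pairs of these genes. Genes at levels like those of MTR4 and NAB3 also differed, with median log2 ratios of -0.48 and 0.00. NRD1 RNA was at 0.665 of the NAB3 level in wild type and at 0.439 of it in the deletion strain. The ratio of TRF5 to AIR1 RNA, by contrast, was 0.590 in wild type and 0.585 in the deletion strain.

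Against all genes compared, NAB3 lay further out than the others. Its log2 ratio was at percentile 94.4 of the 2211 genes, with 123 genes above it. NRD1 was at percentile 83.9, RRP4 at 55.9, AIR1 at 27.9, TRF5 at 27.3 and MTR4 at 17.2. The ratios of all genes depended on level, so each gene was also placed among genes of its own level, in 5 groups of nearly equal size by mean FPKM. NAB3 and TRF5 fell in the same group, of 442 genes with a median log2 ratio of 0.00, and lay on opposite sides of that median. In that group 14 genes had a higher ratio than NAB3 and 71 had a lower ratio than TRF5. NRD1 was in a group of lower genes with a median of 0.20, where 100 of 442 genes had a higher ratio. MTR4 and RRP4 were in the group of highest genes, whose median was -0.48. There 148 of 442 genes had a lower ratio than MTR4 and 112 had a higher ratio than RRP4. AIR1 was in a group with a median of -0.25, where 150 of 442 genes had a lower ratio. Beside genes of like level, the lower values of MTR4 and AIR1 were thus common ones.

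**Figure D2:**
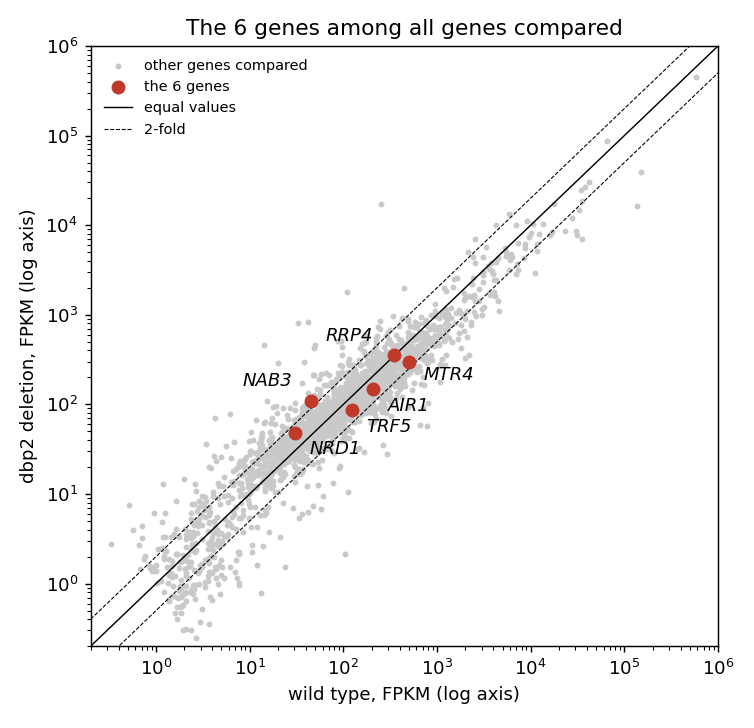
Wild-type level (x axis) and deletion-strain level (y axis) in FPKM on log axes for the 2211 genes compared, with the 6 genes in red, the solid line at equal values and dashed lines at 2-fold. NAB3 is the red point above the upper 2-fold line, at 45.5 and 110.2 FPKM, and the other 5 lie between the lines.

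The 6 genes also split by a promoter element. The PAC element (GCGATGAG) is known from yeast genes of ribosome synthesis and of RNA polymerases I and III. It was searched for on both strands in the 250 bases before each start codon in assembly R64, after the upstream sequences of these genes had been seen. MTR4, TRF5, AIR1 and RRP4 each held 1 match and NRD1 and NAB3 held none. Of 6020 protein-coding genes with a full window 230 held it, or 3.82%. The 30 bases around each match are given because the 4 genes with a match are the 4 that belong to TRAMP and the exosome, although other subunits lacked it: 3 of 5 TRAMP genes and 1 of 10 genes of the exosome ring and Dis3 held a match. They are read 5′ to 3′ on the strand of the gene, with the element in capitals.
MTR4: ttcactttcttGCGATGAGatgcacatagt
TRF5: aggcatctcatCTCATCGCagttaaaaaaa
AIR1: aaattagcgatGCGATGAGtgggaaaggtc
RRP4: gtatggattgaGCGATGAGgtgaaaaaaaa
The stretches lie at chrX:342370-342399 on the plus strand for MTR4, chrXIV:66340-66369 on the plus strand for TRF5, chrIX:212059-212088 on the minus strand for AIR1 and chrVIII:234761-234790 on the minus strand for RRP4. The element read along the gene in MTR4, AIR1 and RRP4 and on the opposite strand in TRF5. Its first base as printed lay 141 bases before the start codon in MTR4, 166 in TRF5, 72 in AIR1 and 121 in RRP4.

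The median ratio of genes with the element was much like that of genes without it, but a smaller share of them was at least 2-fold lower. Of the genes compared, 98 held a match, with a median log2 ratio of -0.08 against -0.06 for the 1888 coding genes without one, and with equal protein-coding sums the medians were 0.38 and 0.40. As deposited, at least 2-fold higher values were found in 7.14% of the genes with a match and 8.85% of those without, and at least 2-fold lower values in 5.10% and 9.43%. The groups differed in level, with a median of 211 FPKM in wild type for genes with a match and 91.5 FPKM for genes without. They were not matched by level. Among the 6 genes, the 4 with a match were at 123 to 500.2 FPKM in wild type and the 2 without were at 30.3 and 45.5 FPKM. In the lists of related factors, PAC matches also stood before LRP1 and REX3 (nuclear exosome cofactor and 3′ exonuclease) and RNT1 (the nuclear RNase III). None of 20 cleavage and polyadenylation genes held one. A further element often found with PAC (AAAATTTT, which reads the same on both strands) was in none of the 6 upstream windows and in 8.62% of all.

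The short motifs that Nrd1 and Nab3 bind were also counted, since the NRD1 transcript is known to be terminated early by its own product. GTAA and GTAG (Nrd1) and TCTT (Nab3) were counted from 250 bases before to 250 bases after the first base of the open reading frame, on both strands. Each motif was counted on its own, overlapping matches included. On the coding strand NRD1 held 7 matches (4 TCTT, 0 GTAA and 3 GTAG), against a median of 6 over all coding genes, and 46.6% of genes held as many. The other 5 genes held 6 to 8. On the opposite strand NRD1 held 15, a number that 5.02% of genes reached, against a median of 9, and the other 5 genes held 5 to 12. On the coding strand TCTT is in 93.4% of all windows, GTAA in 87.5% and GTAG in 69.7%, and on the opposite strand in 98.5%, 90.1% and 76.4%, so their presence alone separates few genes.

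Other subunits of the same complexes were examined by lists, chosen with earlier results of these data known. Of 53 genes in 6 lists of termination, TRAMP, exosome, cap-binding and 3′ end factors, 25 were compared, 19 of them other than the 6 genes. SEN1, the third termination factor, had no row matched to its name and was not analysed here. All 4 TRAMP genes compared had lower values as deposited, as did 1194 of the 2211 genes compared. By 2-fold 0 of the 4 were lower, against 10.9% of all genes, and their median log2 ratio was -0.51. PAP2, the poly(A) polymerase that Trf5 resembles, had the ratio nearest to 1 of them as deposited, at 135 FPKM in wild type against 120.2 FPKM in dbp2Δ cells. That order turned with equal protein-coding sums, where PAP2 was higher, at a log2 ratio of 0.29, about as far from 0 as MTR4 at -0.29, and TRF5 and AIR1 were nearest to 0.

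Of the exosome ring and its nuclease Dis3, 5 of 10 genes were compared. As deposited, 0 of the 5 reached 2-fold in either direction, against 8.86% of all genes upwards and 10.9% downwards. Of these 5 genes 2 were higher and 3 lower, with a median log2 ratio of -0.06 against -0.08 for all genes. With equal protein-coding sums 0 again reached 2-fold and all 5 were higher, as were 69.8% of all genes. Their median was then 0.41 against 0.38 for all genes. RRP40, another cap subunit, was at 84.8 FPKM in wild type against 101.8 FPKM in dbp2Δ cells. RRP43, a ring subunit, was at 276 FPKM and 231 FPKM, and DIS3, the catalytic subunit, was at 281 FPKM and 263 FPKM. CSL4, the remaining cap subunit, was at 437 FPKM in wild type against 419 FPKM in dbp2Δ cells. RRP4 was thus within the range of the other subunits, whose log2 ratios ran from -0.25 to 0.26.

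Of the nuclear exosome cofactors 5 were compared. As deposited, 0 of the 5 passed 2-fold, against 8.86% of all genes upwards and 10.9% downwards, and their median log2 ratio was 0.31. By value 3 were higher, 1 was lower and UTP18 was nearly equal. With equal protein-coding sums all 5 were higher, as were 69.8% of all genes. At that scaling MPP6 passed the limit at a log2 ratio of 1.17, as 19.9% of all genes did upwards. MPP6, an RNA-binding cofactor that helps recruit Mtr4 to the exosome, was at 119.6 FPKM in wild type against 195 FPKM in dbp2Δ cells, 1.63-fold higher. The nuclease gene RRP6 was at 121 FPKM and 150.2 FPKM, and LRP1, which encodes its partner Rrp47, was at 167 FPKM and 208 FPKM. The ratios of RRP6 and LRP1 were nearly equal, at 1.24-fold and 1.25-fold. The Mtr4 adaptor genes were at 188 FPKM in wild type against 157 FPKM in dbp2Δ cells for NOP53, and at 231 FPKM in each strain for UTP18. The cap-binding gene CBC2 was the single member of its list compared, at 546 FPKM and 362 FPKM.

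Cleavage and polyadenylation factors act with Nrd1 and Nab3 at some gene ends. Among the 6 lists, they held the remaining values past 2-fold as deposited. Of 8 compared, 5 were higher and 3 lower as deposited, with a median log2 ratio of 0.39, and 2 were at least 2-fold higher where 8.86% of all genes were. The same number, 2 of 8, passed the limit with equal protein-coding sums, where 19.9% of all genes were. In wild type the 5 genes higher as deposited were at 13.8 to 69.8 FPKM and the 3 lower ones at 95.8 to 427 FPKM. Direction thus went with level in this list, and the ratios of all genes also depended on level. FIP1, a subunit that binds the poly(A) polymerase, was at 13.8 FPKM in wild type against 31.4 FPKM in dbp2Δ cells, 2.28-fold higher. PTA1, a scaffold subunit, was at 30.3 FPKM and 62.6 FPKM, 2.07-fold higher and just past the limit at a log2 ratio of 1.02. HRP1, a cleavage factor that binds the RNA, was at 427 FPKM and 275 FPKM, a log2 ratio of -0.63. SWD2, a subunit shared with a histone methyltransferase complex, was at 22.5 FPKM and 32.1 FPKM, a log2 ratio of 0.50. Over the 19 genes of the 6 lists other than the 6 genes, 10 were higher and 9 lower as deposited, with a median log2 ratio of 0.00. With equal protein-coding sums 16 were higher and 3 lower, where 69.8% of all genes were higher. The median was then 0.47 against 0.38 for all genes.

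**Figure D3:**
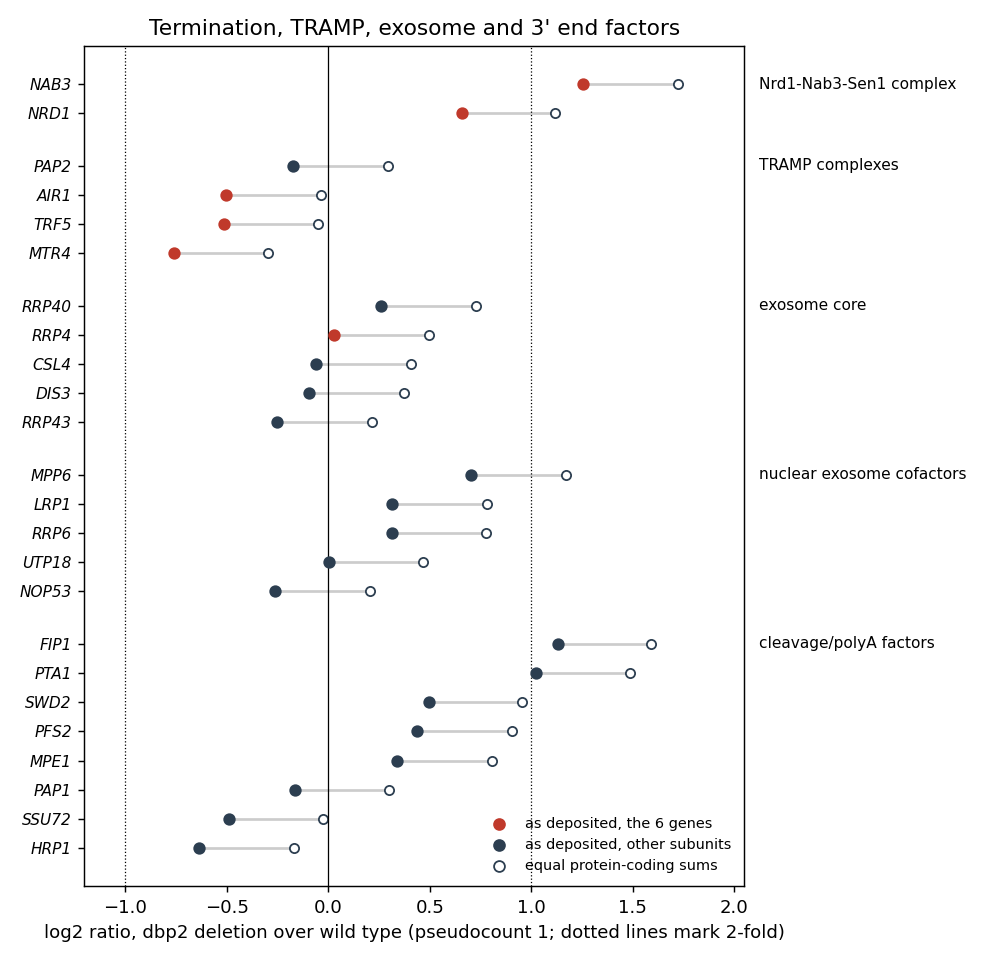
Log2 ratio (x axis, deletion strain over wild type, pseudocount 1) for each gene compared, grouped by complex, with filled points for deposited values (the 6 genes in red) and open points for equal protein-coding sums. NAB3, FIP1 and PTA1 pass the dotted 2-fold line as deposited, all 4 TRAMP genes lie below 0, and PAP2 crosses 0 with equal sums.

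A further list held mRNAs whose amount is known to be set by Nrd1-Nab3 attenuation or by a choice of start site that this pathway reads. Of 8 genes on the list 6 were compared, with 2 higher and 4 lower under each scaling. Over all 2211 genes compared, 1194 were lower as deposited and 667 when protein-coding sums were equal. The median log2 ratio of the 6 listed genes was -0.71 as deposited, against -0.08 for all genes. When protein-coding sums were equal it was -0.24 against 0.38. IMD2, an IMP dehydrogenase gene controlled by guanine nucleotides, was at 208 FPKM in wild type against 80.98 FPKM in dbp2Δ cells, lower by 2.57-fold. ADE12, for adenylosuccinate synthase, was at 801 FPKM and 321 FPKM, 2.49-fold lower. These 2 of 6 genes passed the limit as deposited (33.3% against 10.9% of all genes), and 0 did so when protein-coding sums were equal. The CTP synthase gene URA8 was at 290.5 FPKM in wild type against 169 FPKM in dbp2Δ cells, and URA2, which begins pyrimidine synthesis, was at 248 FPKM and 297 FPKM. NRD1 itself was the member with the highest ratio, and HRP1 was the remaining one. The 4 lower genes and URA2 were at 208 to 801 FPKM in wild type. Ratios over the whole table were lower at such levels, with medians of -0.25 and -0.48 in the 2 highest of the level groups. IMD2 has close paralogs that can share its reads.

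The genes beside the 6 genes on the chromosome were examined next. Of 12 annotated neighbours, 8 stood on 1 row. As deposited, 3 of these were higher and 5 lower in the deletion strain, where 1194 of all 2211 genes were lower. The 8 neighbours had a median log2 ratio of -0.14 against -0.08 for all genes. Equal protein-coding sums made 7 higher and 1 lower, where 69.8% of all genes were higher. The median was then 0.32 against 0.38 for all genes. No neighbour overlapped its gene in the annotation, where the gaps ran from 184 bp to 1094 bp, and how strand entered the counting was not stated. Beside NRD1, MRPL17, a mitochondrial ribosomal protein gene that lies 301 bp past its end on the same strand, was at 66.1 FPKM in wild type against 66.2 FPKM in dbp2Δ cells. RAD50, a DNA repair gene on its other side, was at 47.7 FPKM and 39.98 FPKM. Both neighbours were higher with equal protein-coding sums, at log2 ratios of 0.46 for MRPL17 and 0.21 for RAD50 beside 1.12 for NRD1.

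Beside NAB3, COA2, a cytochrome oxidase assembly gene 581 bp before its start on the same strand, was also higher, at 490 FPKM in wild type against 852 FPKM in dbp2Δ cells. MIY2, a deubiquitinase gene past its end, was at 47.4 FPKM and 41.3 FPKM. Beside MTR4, the nuclear envelope gene CHM7 past its end was at 33.4 FPKM and 30.7 FPKM, and IRC8 before its start stood on 2 rows that went opposite ways as deposited and were both higher with equal sums. TRF5 lies between TOS6, at 86.5 FPKM and 76.97 FPKM, and the kinase gene CLA4, at 30.0 FPKM and 44.9 FPKM. Of the neighbours on 1 row, DYS1, the deoxyhypusine synthase gene that converges on RRP4 at a distance of 282 bp, was the only one past 2-fold as deposited. It was at 373 FPKM in wild type against 133 FPKM in dbp2Δ cells, beside the near-equal values of RRP4. That is 1 of 8 downwards, against 10.9% of all genes. With equal sums DYS1 remained just past the limit, at a log2 ratio of -1.02, as were 4.57% of all genes. COA2 and CLA4 then passed it upwards, at 1.27 and 1.02, which is 2 of 8 against 19.9% of all genes. The threonyl-tRNA synthetase gene THS1, which starts 493 bp from AIR1 in the opposite direction, stood on 2 rows. It was lower on each, at log2 ratios of -2.05 and -0.99. TRM5, beside RRP4, stood on 2 rows that went opposite ways.

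**Figure D4:**
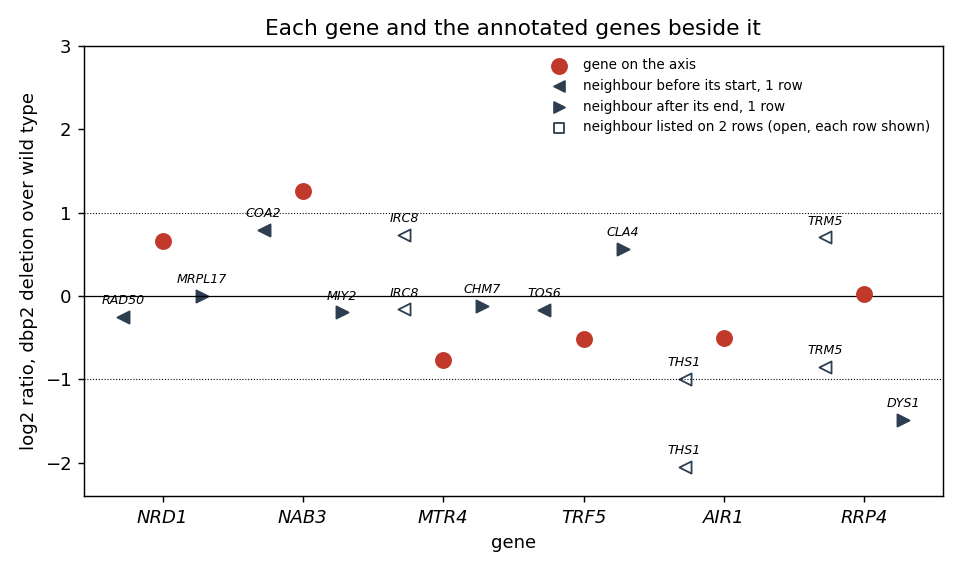
Log2 ratio (y axis, deletion strain over wild type, as deposited, pseudocount 1) of each gene (red) and of the annotated genes before its start (left triangles) and past its end (right triangles), with open triangles for each row of a neighbour listed on 2 rows and dotted lines at 2-fold. DYS1 beside RRP4 is the filled triangle below the lower line, at a log2 ratio of -1.48, and a tRNA gene beside AIR1 with no row is not drawn.

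Genes with the most similar pair of values were found by the Euclidean distance between their log2 levels over the 2 samples. Nearest to NRD1 were YOR022C (0.01) and RAV1 (0.06), and nearest to NAB3 were the ammonium permease gene MEP2 (0.11) and MTC2 (0.14). Nearest to MTR4 were FET5 (0.11) and ADP1 (0.12), and nearest to TRF5 were YNL122C (0.02) and TIM8 (0.06). SBE22 and CDC14 (0.05 each) lay nearest to AIR1, and PCL5 (0.05) and YNR021W (0.08) nearest to RRP4. None of these genes is on the lists of termination and surveillance factors. With 2 values per gene many genes lie close to any pair of values, so the distances only describe position in the table. PCL5, a cyclin gene, also lies on chromosome VIII beyond TRM5, and was at 338 FPKM in wild type against 354 FPKM in dbp2Δ cells.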

How the data were processed

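RNA was measured in 1 deposited sample per strain. FPKM was taken as the unit of the values the authors deposited, because Cuffdiff 2.1.1 appears in the submitters' processing notes and the values are neither whole nor bounded like CPM or TPM. The notes name the build sacCer3. Not given in the sources used here are the aligner, the annotation, the use of strand and how replicates were combined or libraries scaled. Of low values, 31.7% in wild type and 36.2% in the deletion strain lay within 0.1 of a whole multiple of the best step, so no reads were recovered and no counting interval was computed.

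Names on several rows (306) and 7 rows naming several genes were left out of the whole-table comparison. Genes listed at 0 in either strain were given no ratio. A pseudocount of 1 and a minimum mean of 1 FPKM were used. Names were matched to RefSeq assembly R64, to which sacCer3 refers, which placed 2454 names, and sequences and coordinates (1-based) are from it. The equal-sum scaling multiplied deletion-strain values by 1.38 to match wild type over 1986 protein-coding genes. Named genes were the 6 genes, up to 4 genes of each list by size of ratio, chromosomal neighbours and the 2 nearest genes by level; further list genes, the PAC element and the list of genes beside small RNA genes were chosen after their values or sequences were seen. The members and lists were chosen with earlier results of these data known. The calculation was checked on simulated data. Python 3.11.15 was used with numpy 2.4.6, pandas 2.3.3 and matplotlib 3.10.9.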

Additional observations from a re-analysis of the deposited data

How the results depend on the processing

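No paired analysis was possible because each strain has 1 deposited value per row. Pseudocounts of 0.1 and 10, equal protein-coding sums, equal medians, no minimum or a minimum mean of 10 FPKM, and counting every row of repeated names were tried. The 6 log2 ratios kept their direction under each setting that could be applied to them, and NAB3 stayed past 2-fold. With equal protein-coding sums NRD1 passed 2-fold at 1.12, so that 2 of the 6 genes were past the limit in place of 1. Over all genes, that scaling put 441 past the limit upwards and 101 downwards (196 and 241 as deposited), and turned the exosome median to 0.41 by multiplying each deletion-strain value by the same factor. The upward count was 111 with a pseudocount of 10 and 295 when every row was counted. Unknown depth and the lack of replicates limit every value, and most of all those of the genes at low FPKM.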

Other observations

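Many small nucleolar and nuclear RNA genes are known to rely on Nrd1 and Nab3 for their ends. Coding genes that follow any annotated small nucleolar or nuclear RNA gene on the same strand within 1000 bp were therefore listed. The list was made from the annotation after the tables had been seen. Of 28 such genes 10 had a row and 9 were compared. GAL11 was left out because it stood on 2 rows, which went opposite ways. As deposited, 8 of the 9 were lower in the deletion strain and 1 was higher, where 1194 of all 2211 genes were lower. The 9 genes had a median log2 ratio of -0.83 against -0.08 for all genes. With equal protein-coding sums 6 were lower and 3 higher, where 667 of all 2211 genes were lower. The median was then -0.36 against 0.38. The 9 genes were spread over level groups, with 3 in the highest of the 5, whose own median was -0.48. The group medians were -0.25 for CTO1 and FLX1, 0.00 for NUP188 and 0.20 for RGT1, CAF40 and SMC5. Against the median of its own level group 8 of the 9 genes were lower, and the differences in log2 ratio ran from -1.12 to 0.13 with a median of -0.47. The ubiquitin-activating enzyme gene UBA1 was at 1798 FPKM in wild type against 769 FPKM in dbp2Δ cells. FLX1, a mitochondrial carrier gene, was at 176 FPKM and 80.8 FPKM. These 2 of 9 genes were at least 2-fold lower as deposited (22.2% against 10.9% of all genes), and 0 were with equal protein-coding sums. CAF40, a subunit of the Ccr4-Not complex, was the higher gene, at 37.9 FPKM and 47.8 FPKM. The small RNA genes themselves went both ways as deposited, with log2 ratios of 0.79 for SNR85 before NUP188 and -1.94 for SNR87 before SFT1. No replicate check exists for these values, and signal between the small RNA genes and the coding genes after them was not analysed here.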
